A study of Rattus norvegicus with 28 samples.

Results

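Stbd1 (ENSRNOG00000002218) and Gsk3b (ENSRNOG00000002833) are 2 of the 32883 genes counted in 28 tibialis anterior muscles of 14 rats. They are treated together as glycogen genes, and they were chosen by their lower read counts in muscles given a vitamin D receptor (VDR) construct than in the opposite leg. The values of that contrast are therefore given here as a description, with no test. The contrast in the other rats, which received an shRNA against Vdr, was not the basis of the choice and was tested. Earlier results of these data were known when the genes were chosen, so full independence of that test cannot be shown.

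Stbd1 encodes starch-binding domain protein, which binds glycogen through a carbohydrate-binding domain, sits on membranes of the sarcoplasmic and endoplasmic reticulum and is thought to tether glycogen for delivery to lysosomes. Gsk3b encodes glycogen synthase kinase 3 beta, a serine and threonine kinase that phosphorylates and inactivates glycogen synthase, is itself inhibited by insulin signalling through Akt, and also marks beta-catenin for destruction in the Wnt pathway. Skeletal muscle stores glycogen as fuel for contraction, and the cytosolic and the lysosomal route of breakdown both operate there. VDR is a nuclear receptor that binds DNA with the retinoid X receptor.

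Male Wistar rats had 1 DNA construct electrotransferred into the tibialis anterior of each hindlimb. In the 7 rats of the overexpression arm (rats 416 to 422), the right leg received pCAGGS-mVDR, a plasmid for mouse VDR (VDR-OE), and the left leg the empty pCAGGS (VDR-OE control, called a sham knock-in in the labels). In the 7 rats of the knock-down arm (rats 423 to 429), the right leg received VDR shRNA (VDR-KD) and the left leg scramble shRNA (VDR-KD control). All rats received carprofen after electrotransfer, and the study describes rats of 8 weeks of age that were acclimatised for 1 week and, for overexpression, muscles taken after 10 days following an overnight fast. The same ages and times are not stated separately for the knock-down arm. The control was always the left leg, so that side and construct cannot be told apart, and the 2 arms are different rats with different constructs. A muscle is a mixture of fibres that took up the construct, fibres that did not, and other cells.

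Between 36684220 and 46312167 reads were assigned to genes per muscle. Levels are normalised CPM (read counts relative to library size), scaled by trimmed mean of M-values (TMM) factors fitted over all 28 muscles, which ranged from 0.736 to 1.44 and had medians of 0.875 in VDR-OE control, 1.003 in VDR-OE, 1.01 in VDR-KD control and 1.28 in VDR-KD. Without these factors, the median log2 ratio of treated over control leg across all genes was 0.118 in the overexpression arm and 0.240 in the knock-down arm, so small decreases below depend on the scaling. Vdr (ENSRNOG00000054420) rose in the VDR-OE legs with a log2 fold change of 8.52 (SE 1.49, adjusted p = 0.0228, edgeR quasi-likelihood test). The muscle labelled VDR-OE of rat 419 had 5.45 CPM of Vdr against 5.75 in its control leg and goes against its label. Vdr was not detectably lowered in the VDR-KD legs (log2 fold change -0.26, SE 0.404, adjusted p = 0.839; lower in 4 of 7 rats), so the knock-down is known from the labels alone. None of the 10 skeletal muscle markers listed for this work could be looked up by symbol, and the tissue label was not checked by its markers.

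The 250 bases upstream of each gene's RefSeq start are shown because both genes were lower in the same muscles and because VDR acts at DNA. They come from RefSeq on GRCr8, a later build than the Rnor_6.0 assembly used for counting. Both lie on the minus strand and are written 5′ to 3′ along the gene. The Stbd1 window is chr14:15758175-15758424 and the Gsk3b window is chr11:76153250-76153499. The start used for Gsk3b lies inside the annotated span of the gene and is not its outermost start. Capitals mark CACGTG, the E-box letters bound by several basic helix-loop-helix factors.
Stbd1: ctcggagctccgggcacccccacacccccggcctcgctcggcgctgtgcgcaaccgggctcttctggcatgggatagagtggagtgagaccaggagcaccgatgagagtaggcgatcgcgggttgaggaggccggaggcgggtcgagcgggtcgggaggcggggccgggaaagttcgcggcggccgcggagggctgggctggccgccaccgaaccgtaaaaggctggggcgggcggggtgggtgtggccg
Gsk3b: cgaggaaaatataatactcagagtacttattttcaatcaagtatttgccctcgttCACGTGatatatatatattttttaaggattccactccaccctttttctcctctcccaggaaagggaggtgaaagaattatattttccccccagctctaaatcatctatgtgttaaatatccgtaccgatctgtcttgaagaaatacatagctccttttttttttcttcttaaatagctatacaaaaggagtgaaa

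The windows differ in base composition. That of Gsk3b belongs to the inner start used, and its outermost start was not searched. The Stbd1 window has 73.2% G and C and the Gsk3b window 34.4%, against a median of 52% (quartiles 44.4% and 60.8%) over 27457 rat promoter windows. Both strands were searched for the nuclear receptor half-sites AGGTCA (in 13.7% of all windows) and AGTTCA (12.1%). They were also searched for the repeats of each half-site with a spacer of 3 bases, AGGTCANNNAGGTCA (0.0146%) and AGTTCANNNAGTTCA (0.00728%), which contain the half-sites. The other motifs were CACGTG (5.79%) and TGATGNAA (3.27%). The Stbd1 window held none of these letters, and the Gsk3b window held CACGTG from 195 to 190 bases before the start and no other.

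Stbd1 was lower in the VDR-OE leg than in the empty vector leg in 7 of 7 rats, and its level averaged 40.8% of that in the control leg. In the VDR-OE control muscles Stbd1 ran from 265 to 551 CPM with a median of 489, and in the VDR-OE muscles from 138 to 211 CPM with a median of 174. The 2 groups did not overlap, as was so, with VDR-OE below, for 1.26% of 15112 genes. The largest differences were in rat 420, from 530 to 152 CPM, and in rat 416, from 551 to 174 CPM. The smallest was in rat 422, from 265 to 183 CPM.

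The remaining rats lay between these. Stbd1 went from 374 to 211 CPM in rat 417, from 489 to 194 CPM in rat 418 and from 512 to 166 CPM in rat 421. In rat 419, whose Vdr did not rise, Stbd1 went from 334 to 138 CPM, the lowest level of any VDR-OE muscle. The log2 ratios were -1.67, -0.82, -1.34, -1.27, -1.80, -1.62 and -0.54 in rats 416 to 422, with a mean of -1.29 ± 0.466 (SD, n = 7). The fitted log2 fold change was -1.29 (SE 0.158), and it was -1.29 without rat 419. It was negative without TMM factors too, with a mean log2 ratio of -1.17 and 7 of 7 rats lower.

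The control legs varied more than the VDR-OE legs. The coefficient of variation of Stbd1 was 25.5% in VDR-OE control and 14.2% in VDR-OE, while counting error was at most 1.47% in any muscle (4646 to 27467 reads).

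**Figure D1:**
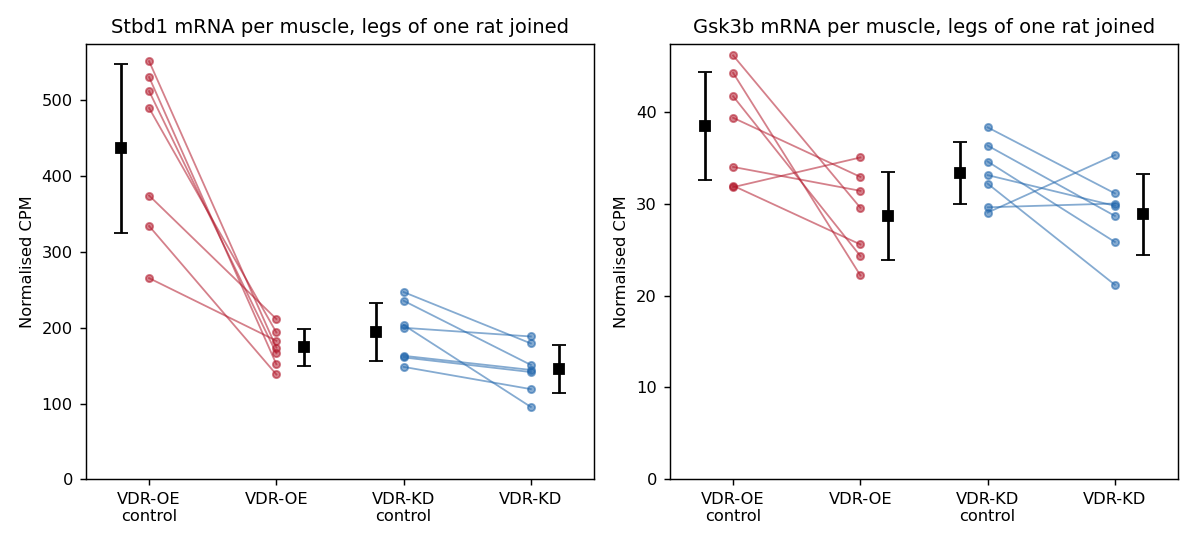
Normalised CPM (vertical axis, from 0) of Stbd1 (left) and Gsk3b (right) in each of the 28 muscles by group; lines join the 2 legs of a rat, and black squares with bars are means and SDs of 7 muscles. VDR-OE control stands above every other group for Stbd1 (mean 436 CPM; its lowest muscle lies inside the range of the other groups if TMM factors are left out), whereas all groups overlap for Gsk3b.

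Gsk3b was lower in the VDR-OE leg in 6 of 7 rats, by a smaller amount, and averaged 74.5% of the control leg. It ran from 31.8 to 46.1 CPM (median 39.3) in VDR-OE control and from 22.2 to 35.0 CPM (median 29.6) in VDR-OE. The ranges overlapped. The exception was rat 418, in which Gsk3b went from 31.8 to 35.0 CPM.

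The lower values came mainly from 3 rats. Gsk3b went from 44.2 to 22.2 CPM in rat 416, from 41.7 to 24.3 CPM in rat 420 and from 46.1 to 29.6 CPM in rat 421, and these are also the 3 rats with the largest Stbd1 differences. The log2 ratios in rats 416 to 422 were -0.99, -0.26, 0.14, -0.11, -0.78, -0.64 and -0.32, with a mean of -0.42 ± 0.398 (SD, n = 7). The fitted log2 fold change was -0.42 (SE 0.130). Without TMM factors only 4 of 7 rats were lower and the mean was -0.30. Reads per muscle for Gsk3b ran from 754 to 2205.

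In the fit that chose them, edgeR called 7.14% of 14526 genes in either direction and 3.06% as lower, and the VDR-OE leg was lower in 7 of 7 rats for 5.63% of 15112 genes. The VDR-OE leg was lower in 6 or 7 rats for 23.3% of genes. A total of 39 genes had a more negative log2 fold change than Stbd1, and 600 a more negative one than Gsk3b. Nothing is read from these shares, since this contrast was the basis of the choice.

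Levels of other cell types' markers moved with the construct. The 4 of 7 macrophage markers that could be looked up (Csf1r, Cd14, Cd163 and Mrc1) summed to between 37.6 and 108 CPM in VDR-OE control and between 92.5 and 235 CPM in VDR-OE, were higher in 7 of 7 rats, and 4 of 4 were called higher. The 5 fibroblast markers summed to between 1511 and 5179 CPM in VDR-OE control and between 2188 and 8521 CPM in VDR-OE, were higher in 7 of 7 rats, and 5 of 5 were called higher. Over all 14526 genes 4.08% were called higher, and these markers could be looked up only because the symbol source lists genes with a small p in the same contrast. No marker looked up was at 0. The part of these cells in the Stbd1 and Gsk3b values was not tested, and in whole muscle fewer cells of a type and less RNA per cell cannot be told apart.

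In the knock-down arm, Stbd1 was again lower in the treated leg in 7 of 7 rats (4 of 7 without TMM factors), by a smaller amount, and averaged 74.6% of the scramble leg. It ran from 148 to 247 CPM (median 200) in VDR-KD control and from 95.5 to 188 CPM (median 144) in VDR-KD. The ranges overlapped. The largest difference was in rat 427, from 203 to 95.5 CPM, and the smallest in rat 425, from 200 to 188 CPM.

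The other legs of this arm showed intermediate differences. Stbd1 went from 235 to 151 CPM in rat 423, from 163 to 144 CPM in rat 424 and from 148 to 119 CPM in rat 426. It went from 161 to 141 CPM in rat 428 and from 247 to 179 CPM in rat 429. The log2 ratios in rats 423 to 429 were -0.64, -0.18, -0.09, -0.32, -1.09, -0.18 and -0.46, with a mean of -0.42 ± 0.351 (SD, n = 7; exact two-sided permutation test over sign flips, p = 0.0156, the smallest that 7 rats allow). Without TMM factors the mean was -0.18 and the exact permutation p was 0.359.

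Across all genes the Stbd1 difference did not pass the test. The log2 fold change was -0.41 (SE 0.141; edgeR quasi-likelihood test, unadjusted p = 0.0169, adjusted p = 0.803). None of the 14652 genes tested in this arm was called, which is 0% of them, against 395 genes (2.7%) at an unadjusted p under 0.05, of which 293 (2%) were lower. The likelihood ratio test and DESeq2 also called none, with 401 and 625 genes at an unadjusted p under 0.05. The treated leg was lower in 7 of 7 rats for 0.443% of 15112 genes, and 4.54% of the genes had a more negative log2 fold change than Stbd1.

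Gsk3b in the knock-down arm did not differ beyond the spread between rats. It was lower in the treated leg in 5 of 7 rats, as it was in 5 or more rats for 28.8% of genes, and it averaged 86.1% of the scramble leg (with no TMM factors, 3 of 7 rats and a mean log2 ratio of 0.02). It ran from 29.0 to 38.3 CPM (median 33.1) in VDR-KD control and from 21.2 to 35.3 CPM (median 29.8) in VDR-KD. The log2 ratios were 0.28, 0.02, -0.15, -0.34, -0.60, -0.42 and -0.30 in rats 423 to 429. Rats 423 and 424 were higher or level, and rat 427 was again the lowest.

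The mean Gsk3b ratio was -0.22 ± 0.295 (SD, n = 7; exact two-sided permutation test, p = 0.109). The fitted log2 fold change was -0.21 (SE 0.114, adjusted p = 0.803, edgeR quasi-likelihood test). In this arm the macrophage markers summed to between 85.9 and 319 CPM in VDR-KD control and between 91.8 and 507 CPM in VDR-KD, higher in 5 of 7 rats. The fibroblast markers were higher in 4 of 7 rats, and none of these markers was called.

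**Figure D2:**
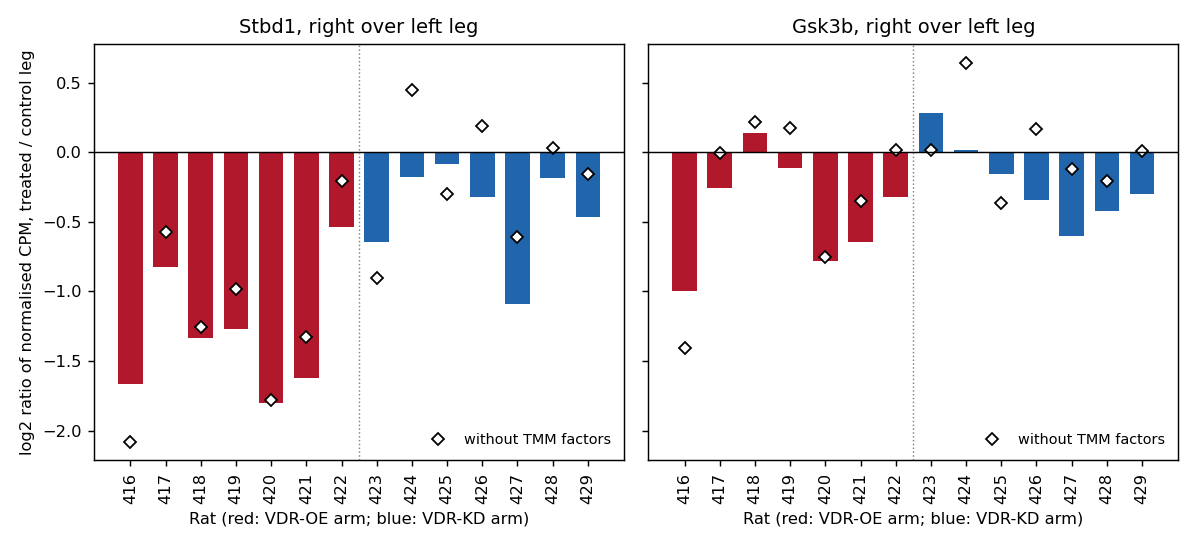
Log2 ratio of treated over control leg (vertical axis) for Stbd1 (left) and Gsk3b (right) in each rat, red bars for the VDR-OE arm and blue for the VDR-KD arm; diamonds are the same ratios without TMM factors. All 14 Stbd1 bars lie below 0, but 3 diamonds of the VDR-KD arm lie above it, and the Gsk3b bars of rats 418, 423 and 424 lie above 0.

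Stbd1 was thus lower in the treated leg of 14 of 14 rats with TMM factors, a pattern shared by 8 of 15112 genes (0.0529%), part of which the choice of Stbd1 fixed. Of the other 7, chosen here after their values were seen, 4 had a symbol: Emc1, Spats1, Zfhx2 and Tmbim6. Tmbim6, which encodes a membrane protein of the endoplasmic reticulum, had mean log2 ratios of -0.36 with the VDR construct and -0.23 with the shRNA. Emc1, a subunit of the membrane protein insertase of the endoplasmic reticulum, had -0.25 and -0.21. A more negative mean log2 ratio in the knock-down arm than that of Stbd1 was found in 2 of the 8 genes, 1 of them Spats1 at -0.77.

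The difference between the arms in log2 fold change was -0.88 (SE 0.216) for Stbd1 and -0.21 (SE 0.181) for Gsk3b, both given without a test. These come from different rats, and the constructs and the control legs differ between them.

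The group that stood apart in Stbd1 level was VDR-OE control. The order of Stbd1 levels was VDR-OE control (436 ± 111 CPM), VDR-KD control (194 ± 38.3 CPM), VDR-OE (174 ± 24.8 CPM) and VDR-KD (146 ± 32.2 CPM; SD, n = 7 each). The last 3 groups overlapped. The means of VDR-KD control and VDR-OE differed by less than the SD of either, and those of VDR-OE and VDR-KD by 28.4 CPM, less than the SD of VDR-KD but more than that of VDR-OE. The lowest VDR-OE control muscle, at 265 CPM, lay above the highest muscle of the other groups, at 247 CPM, but not without TMM factors (211 against 240 CPM).

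The empty vector legs held 2.22 times the Stbd1 level of the scramble legs, whereas the VDR-OE legs held 0.904 times that level and 1.21 times that of the VDR-KD legs. VDR-OE control lay above VDR-KD control with no overlap for 0.463% of 15112 genes, and above each of the other 3 groups with no overlap for 16 genes (0.106%). Stbd1 was chosen for a lower level in VDR-OE than in VDR-OE control, which partly fixed both patterns. Since the plasmid and the rats both differ between the control groups, the arm and the empty vector cannot be told apart.

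Gsk3b followed a flatter order. The levels were 38.4 ± 5.91 CPM in VDR-OE control, 33.3 ± 3.39 CPM in VDR-KD control, 28.8 ± 4.41 CPM in VDR-KD and 28.7 ± 4.78 CPM in VDR-OE (SD, n = 7 each), and every group overlapped the next. The means of VDR-KD and VDR-OE differed by 0.132 CPM. The empty vector legs held 1.15 times the Gsk3b level of the scramble legs.

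The Stbd1 differences and the Vdr levels of the VDR-OE legs were not in the same order. Rat 422 had the highest Vdr, 5938 CPM, and the smallest Stbd1 difference of its arm, and rat 417 had 3685 CPM and the next smallest. Rat 418 had only 201 CPM of Vdr and rat 419 had 5.45 CPM, with Stbd1 ratios of -1.34 and -1.27. Rats 416, 420 and 421, with the largest differences, had 1986, 2299 and 2747 CPM of Vdr. With 7 rats and 1 of them without the transgene signal, this order is given as a description.

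In the knock-down arm, the 3 rats with the most negative Stbd1 ratios included 2 whose Vdr was higher in the shRNA leg. Vdr went from 1.89 to 2.59 CPM in rat 427 and from 4.38 to 6.54 CPM in rat 423. The third was rat 429, with Vdr from 3.41 to 2.38 CPM and a Stbd1 log2 ratio of -0.46. Rat 426 had the largest Vdr increase, from 1.39 to 4.27 CPM, and a Stbd1 log2 ratio of -0.32. In rats 424 and 425, whose Vdr went from 6.72 to 2.12 CPM and from 8.12 to 2.93 CPM, the Stbd1 log2 ratios were -0.18 and -0.09. In rat 428 Vdr went from 3.14 to 1.94 CPM, with a Stbd1 log2 ratio of -0.18. Whether the ratios are related was not tested.

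**Figure D3:**
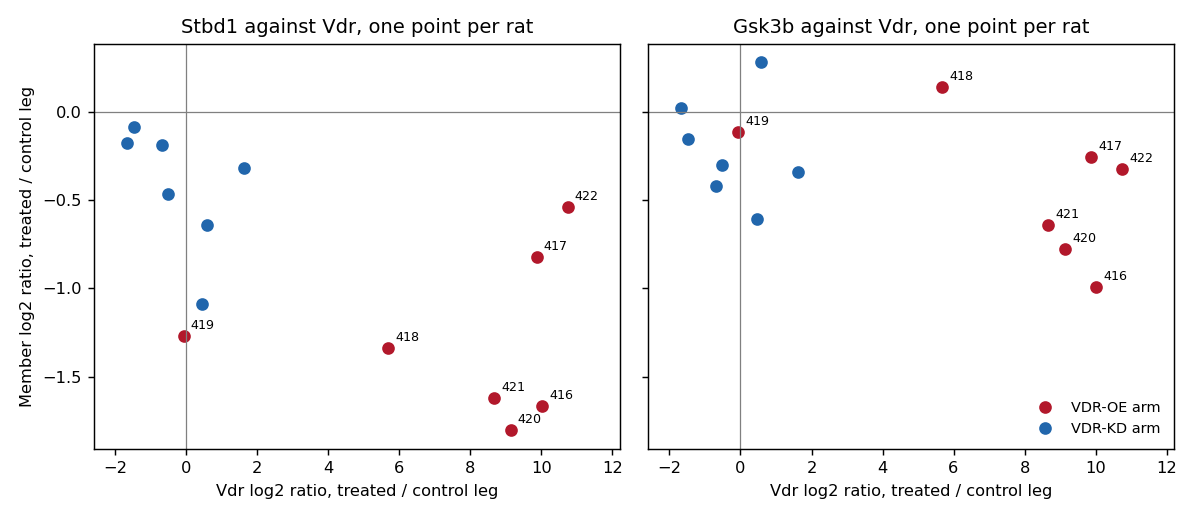
Log2 ratio of treated over control leg of Stbd1 (left) and Gsk3b (right; vertical axis) against that of Vdr (horizontal axis), 1 point per rat, red for the VDR-OE arm with rat numbers and blue for the VDR-KD arm. Rat 419 sits at a Vdr ratio near 0 with a Stbd1 log2 ratio of -1.27, and rat 422 has the highest Vdr with -0.54.

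Only a small part of the glycogen and Gsk3 pathways could be described. Of 92 list entries, 10 had a gene symbol paired with an identifier in the sources used, and those symbols were given for the genes with the smallest p in the study's own comparison of the VDR-OE legs. Counts over these 10 in the overexpression arm are thus no independent support. Among them, 3 of 10 were called lower and none was called higher. Of all genes, 3.06% were called lower, 4.08% higher and 7.14% in either direction. Of the 10, 5 had a negative and 5 a positive log2 fold change, and the median log2 fold change was 0.07 against -0.0034 over all 14526 genes. No entry of the list of glycogen-targeting phosphatase subunits, laforin and malin was among the 10.

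Of the synthesis list, Gbe1 and Pgm2 were found. Gbe1, the branching enzyme, was lower in 7 of 7 VDR-OE legs and its mean fell to 77.7 ± 8.27 CPM, against 117 ± 21.7 CPM in the control legs (SD, n = 7; log2 fold change -0.56, SE 0.112, adjusted p = 0.0289, edgeR quasi-likelihood test). Pgm2, a phosphoglucomutase family member, had means of 8.50 and 11.4 CPM and did not pass the test (log2 fold change 0.44, adjusted p = 0.0687). In the knock-down arm Gbe1 had means of 90.8 and 81.2 CPM (log2 fold change -0.21, SE 0.199), a difference that changed sign without TMM factors.

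Of the cytosolic breakdown list, Phka1, Pygl and Pygb were found, and none passed the test. Phka1, the muscle regulatory subunit of phosphorylase kinase, had means of 680 ± 257 CPM in VDR-OE control and 402 ± 122 CPM in VDR-OE (log2 fold change -0.73, adjusted p = 0.0771). It had 476 ± 191 CPM in VDR-KD control and 317 ± 181 CPM in VDR-KD (log2 fold change -0.72, unadjusted p = 0.0304, adjusted p = 0.803; edgeR quasi-likelihood test). It was lower in 6 of 7 rats of each arm.

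Pygl and Pygb, the liver and brain forms of glycogen phosphorylase, had log2 fold changes of 0.84 (adjusted p = 0.0537) and 0.56 (adjusted p = 0.0556) with the VDR construct. They had 0.58 and 0.40 with the shRNA. Each was higher in the treated leg in 6 of 7 rats of the overexpression arm and 5 of 7 of the knock-down arm.

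Gaa, the acid alpha-glucosidase that breaks down glycogen in lysosomes, was the only member found of the lysosomal list, to whose route Stbd1 is thought to belong. It fell in the VDR-OE legs, which held 97.9 ± 13.6 CPM against 136 ± 26.5 CPM in the control legs (SD, n = 7; log2 fold change -0.46, SE 0.103, adjusted p = 0.0368, edgeR quasi-likelihood test) and was lower in 7 of 7 rats. In the knock-down arm it had means of 120 and 112 CPM (log2 fold change -0.10, SE 0.114, adjusted p = 0.810), with a sign that turned without TMM factors. The difference between the arms was -0.37 (SE 0.155, adjusted p = 0.631).

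Around Gsk3b, the list of insulin signalling and glycogen synthase kinases gave Pdpk1, Prkag2 and Dyrk1a, and the Wnt list gave Axin2. Dyrk1a, a protein kinase of the first of these lists, fell in the VDR-OE legs, with 76.6 ± 5.16 CPM against 94.1 ± 6.78 CPM in the control legs (SD, n = 7; log2 fold change -0.29, SE 0.0699, adjusted p = 0.0436, edgeR quasi-likelihood test). Pdpk1, the kinase upstream of Akt, had -0.29 (adjusted p = 0.0539). Axin2, a scaffold of the beta-catenin destruction complex, had 0.43 (adjusted p = 0.0581).

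Prkag2, a regulatory subunit of AMP-activated protein kinase, pointed in opposite directions in the 2 arms. Its log2 fold change was 0.46 (adjusted p = 0.0905) with the VDR construct and -0.18 (adjusted p = 0.803) with the shRNA, the latter with the opposite sign without TMM factors. The difference of 0.64 (SE 0.185, unadjusted p = 0.00365) did not pass across all genes (adjusted p = 0.471, edgeR quasi-likelihood test). No list gene was called in the knock-down arm (1 of 10 at an unadjusted p under 0.05) or in the difference between arms (3 of 10), in each of which edgeR called 0% of all genes. For the difference between arms 1099 of 15112 genes had an unadjusted p under 0.05, and the likelihood ratio test called 18.

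The 3 calls in the overexpression arm changed when single rats were left out, as did the calls over all genes, from 0 to 4768. The log2 fold changes of the 3 genes kept their sign. They ran from -0.63 to -0.48 for Gbe1, from -0.52 to -0.40 for Gaa and from -0.31 to -0.24 for Dyrk1a. The highest unadjusted p was 0.0027, 0.0061 and 0.0096 in that order (edgeR quasi-likelihood test). None of Gbe1, Gaa and Dyrk1a was called without rat 417, 418, 420, 421 or 422, and without rat 422 Pdpk1 was called lower instead (adjusted p = 0.0472, edgeR quasi-likelihood test). Without rat 419, Gbe1 was still called (adjusted p = 0.0457) and Prkag2 was called higher (adjusted p = 0.0456). Without rat 416, all 3 were called among 5 lower and 4 higher list genes, and edgeR called 4768 of all 14363 genes tested. The list genes had symbols through a small p in this contrast, so these counts are no separate result.

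**Figure D4:**
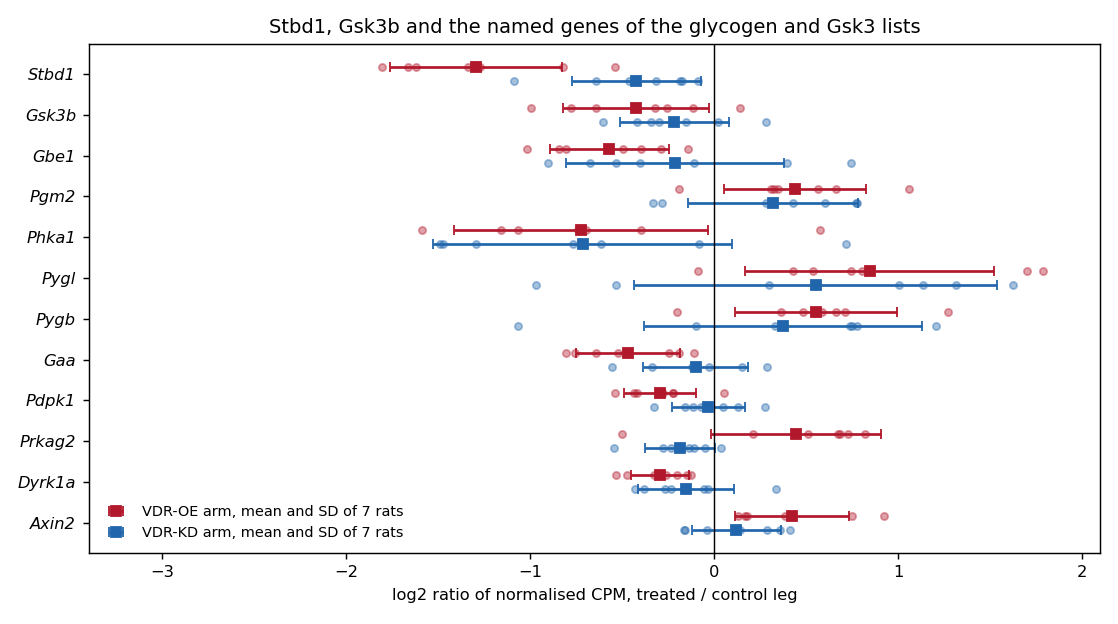
Log2 ratio of treated over control leg (horizontal axis) for Stbd1, Gsk3b and the 10 list genes with a symbol, red for the VDR-OE arm and blue for the VDR-KD arm; small points are rats, squares with bars are means and SDs of 7 rats. Among the genes shown, Stbd1 has the most negative mean of the VDR-OE arm, -1.29, and Phka1 that of the VDR-KD arm, -0.72. The VDR-OE contrast chose Stbd1 and Gsk3b, so their place in it is no result.

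The genes whose levels were most like those of Stbd1 were Gtpbp2, Lars, Sspo, Avil and Rnf185. Likeness was Pearson's r of log2 CPM over the 28 muscles, given with no p since muscles share rats and groups, and these 5 ranked highest of 15111 genes. Gtpbp2, which encodes a GTP-binding protein involved in ribosome rescue, had r = 0.897 and 0.674 after the group means were removed. Lars, the cytosolic leucyl-tRNA synthetase, had 0.894 and 0.663.

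Each of the 5 was lower in 7 of 7 VDR-OE legs, as were 5.63% of 15112 genes. Their choice by likeness to Stbd1 partly fixed this, so it is no separate result. Rnf185, an E3 ubiquitin ligase of the endoplasmic reticulum, held 89.3 ± 35.8 CPM in VDR-OE control and 37.1 ± 4.02, 35.0 ± 6.24 and 36.3 ± 4.74 CPM in VDR-OE, VDR-KD control and VDR-KD (SD, n = 7 each). In the knock-down arm it was lower in only 3 of 7 rats, with a log2 fold change of 0.06 against -0.41 for Stbd1. Avil, which encodes advillin, an actin-binding protein, had -1.97 with the VDR construct and -0.03 with the shRNA. In that arm Gtpbp2 and Lars were lower in 6 of 7 rats, with log2 fold changes of -0.09 and -0.12.

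With the group means left in, and so with the contrast that chose both genes, fewer genes resembled Gsk3b. Only 5 genes had r over 0.8 with it, against 61 with Stbd1. They were Aff4 (r = 0.854; 0.735 with group means removed), Ptpn21 (0.825), Samd12 (0.820), LOC100912365 (0.816) and Slain2 (0.812). Aff4, a scaffold of the super elongation complex of transcription, had log2 fold changes of -0.27 with the VDR construct and -0.13 with the shRNA. It was lower in 6 of 7 rats in each arm, which its choice by likeness to Gsk3b partly fixed. The VDR-OE leg was lower in 6 or 7 rats for 23.3% of genes.

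Stbd1 and Gsk3b had r = 0.706 with each other over the 28 muscles and 0.479 with the group means removed. Gsk3b was 228th among the genes most like Stbd1, and Stbd1 54th among those most like Gsk3b. Their r with Vdr was -0.157 and -0.377.

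Of the 23 genes named by rule, 18 had a promoter window. CACGTG, found before the inner Gsk3b start, was also in the windows of Aff4 and Gaa, and AGTTCA was in those of Gtpbp2 and Rnf185. AGGTCA was in the windows of Sspo, Ptpn21 and Slain2, and TGATGNAA in those of Avil and Pgm2. These matches are of letters only. The Gsk3b locus overlaps 2 other annotated genes on GRCr8, Nr1i2 and LOC120095744, and the sources do not state whether counting used strand, so that reads of overlapping genes may not be told apart. The Stbd1 locus overlaps none.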

How the data were processed

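RNA from 28 rat tibialis anterior muscles was sequenced as paired 75 bp reads (TruSeq, HiSeq). The authors trimmed reads with Trimmomatic and aligned and counted them with Rsubread, and deposited raw counts per gene on Rnor 6.0 with Ensembl release 89. The submitters' processing notes name bcl2fastq 2.17.1.14, FastQC 0.11.5 and edgeR 3.18.1.

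Groups followed the VDR status label, and legs were paired by the animal label. The filter on low counts kept genes with a CPM above that equal to 10 reads (0.239 in the VDR-OE arm, 0.251 in the VDR-KD arm) in 7 or more muscles, which left 14526, 14652 and, over all muscles, 15112 genes. Counts were fitted per arm with edgeR 4.0.16 (R 4.3.3), TMM factors, rat as a block and the quasi-likelihood test, with Benjamini-Hochberg adjustment over all genes and a threshold of 0.05. The likelihood ratio test, which the study's methods use through glmFit, and DESeq2 1.42.0 were alternatives. A sign-flip permutation test was used for single ratios, and log2 CPM used a prior count of 0.5. Scripts were tested on simulated data, in which the quasi-likelihood test missed more of the simulated differences in the VDR-KD arm than it recovered. The lower bound set for the recovered share was reduced after this was seen. The absence of calls in that arm therefore does not show an absence of differences.

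Same-group muscles differed by far more than counting noise (lowest chi-square per degree of freedom 30.2), so none was treated as a duplicate. The pairing comes from the animal labels. Deviations of a rat's 2 legs from their group means had a mean correlation of 0.243 in the VDR-OE arm and -0.105 in the VDR-KD arm. Between legs of different rats it was -0.041 and 0.018. In the VDR-KD arm, legs of a rat were thus no more alike than legs of different rats, and the pairing there rests on the labels alone. Depth was 36684220 to 46312167 counts per muscle.

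The genes and the lists were chosen with earlier results of these data known. Named are Stbd1, Gsk3b, Vdr, list genes past the threshold, up to 3 further genes of each list by mean CPM, and the 5 genes most like each member. Symbols came only from identifiers that the study's supplementary gene sheet pairs with one (1998 identifiers). Endothelial, adipocyte, satellite cell and Schwann cell marker lists had no entry with a symbol. The labels name pCAGGS as the plasmid backbone and the study's methods another, and the labels are followed here.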

Additional observations from a re-analysis of the deposited data

Results flagged for a closer look

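Of 78 sets of 7 muscles or ratios checked for a value far from the others, 1 was marked, and chance marks about 1 in 20. Axin2 in the VDR-OE muscles was highest in rat 419, at 9.95 CPM against a group mean of 6.17 ± 1.73 CPM (SD, n = 7), with a gap to the nearest muscle of 0.739 of the group's range. This is the rat whose Vdr did not rise.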

How the results depend on the processing

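The fitted Stbd1 log2 fold change kept its sign under every alternative fit run, and with 1 rat left out it ran from -1.41 to -1.19 in the overexpression arm and from -0.47 to -0.30 in the knock-down arm (adjusted p 0.275 to 0.997). Gsk3b ran from -0.50 to -0.32 and from -0.30 to -0.14. In the knock-down arm, relative log expression factors in place of TMM gave a mean log2 ratio of -0.418 for Stbd1 (7 of 7 rats lower). For Gsk3b they gave -0.213 (5 of 7 lower). Leaving out all factors mattered more: the mean log2 ratio was then -0.18 for Stbd1 (exact permutation p = 0.359) and 0.0212 for Gsk3b (p = 0.891). The median over all genes was then 0.240, and the mean Gsk3b level in VDR-KD was 33.4 CPM. With 1 rat left out, the Stbd1 ratio ran from -0.48 to -0.31 (exact permutation p = 0.0312 each time, the smallest for 6 rats) and the Gsk3b ratio from -0.30 to -0.15.

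Calls among the list genes in the overexpression arm depended on the test. Against 3 lower and 0 higher, the likelihood ratio test called 5 and 4, DESeq2 5 and 5, and 1 fit of all 28 muscles 1 lower. With 1 rat left out they ran from 0 to 5 lower and from 0 to 4 higher. Over all genes the 1037 calls became 2262 with the likelihood ratio test, 2752 with DESeq2 and 229 with 1 fit of all 28 muscles. With 1 rat left out they ran from 0 to 4768, being 4768 without rat 416, 149 without rat 417, 1 without rat 418, 209 without rat 419, 4 without rat 420, 0 without rat 421 and 416 without rat 422. In the knock-down arm 0 genes were called in every fit. The difference between the arms gave 18 genes with the likelihood ratio test, 1 with no filter and 1 with the filter passed in 2 samples. Pdpk1 in the knock-down arm turned to 0.0261 without rat 427 and ran down to -0.0816 with another rat left out. The cause of these changes was not tested.

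With no replicate block (legs not paired by rat) 887 genes were called in the overexpression arm, 4 list genes lower and 1 higher, and 0 in the knock-down arm, where Stbd1 had -0.41 (adjusted p = 0.681). Depth does not limit the member values, which rest on at least 754 reads per muscle.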
